A study of Homo sapiens with 17 samples.

Results

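TRNI, TRNQ and TRNM, the mitochondrial genes for tRNA-Ile, tRNA-Gln and tRNA-Met, lie side by side between the protein-coding genes ND1 and ND2 and are known as the IQM cluster. These 3 genes were taken by name from the 37 gene rows and 22 tRNA rows of the deposited count table and were followed through all 17 libraries. The libraries hold double-stranded RNA (dsRNA) that was pulled down with the J2 antibody (RIP-seq), polyadenylated in vitro, amplified as PCR-cDNA and read on a nanopore sequencer. H1437, H23 and PC9, established human cell lines of non-small cell lung carcinoma (NSCLC), gave 3 libraries each without treatment (replicates 1 to 3). Each line also gave 1 library with IMT1, an inhibitor of the mitochondrial RNA polymerase, and 1 library without it, and H23 gave 1 library with siRNA knockdown of ADAR1 (ADAR1 KD), an RNA-editing enzyme that acts on dsRNA, and 1 control library that the study treated with nontargeting siRNA. The sample titles give no genotype other than the knockdown, no dose and no time. The paired controls are titled replicate 4 of each line and replicate 5 of H23, and they were assigned from the names of the alignments. The level of ADAR1 cannot be checked here, since only mitochondrial features were counted. Each condition beyond the 3 lines rests on 1 library per line, so the conditions have no replicates within a line.

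Both strands of the circular mitochondrial genome are transcribed into long RNAs that span nearly the whole circle. The tRNAs sit between the larger genes like punctuation marks, and RNase P and RNase Z cut at their ends to free the mRNAs and rRNAs. RNA from opposite strands can pair, and tRNA clusters that hold genes on both strands, such as the IQM cluster, are places where a tRNA of one strand faces the antisense of its neighbours. TRNI and TRNM are read from the heavy-strand transcript, while TRNQ is one of the few tRNAs of the light-strand transcript. Their tRNAs bring isoleucine, glutamine and methionine to the mitochondrial ribosome, and mitochondrial tRNA-Met serves both in starting and in lengthening the protein chain.

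In the mitochondrial reference genome (chromosome MT, revised Cambridge sequence), TRNI occupies positions 4263 to 4331 of the plus strand, TRNQ 4329 to 4400 of the minus strand and TRNM 4402 to 4469 of the plus strand. RefSeq gives the same positions for all 3 genes. TRNI starts on the base after ND1 (positions 3307 to 4262), and TRNM ends on the base before ND2 (positions 4470 to 5511). TRNI and TRNQ meet tail to tail and share the 3 bases from 4329 to 4331. A single base, position 4401, separates TRNQ from TRNM, so that the cluster spans 207 bases without any other gap. The genes are of nearly equal length, 69 bases for TRNI, 72 for TRNQ and 68 for TRNM. The strand setting of the read counting is not given in the sources used here, so that reads of TRNQ and antisense reads of the same bases cannot be told apart, and the same holds for TRNI and TRNM.

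**Figure D1:**
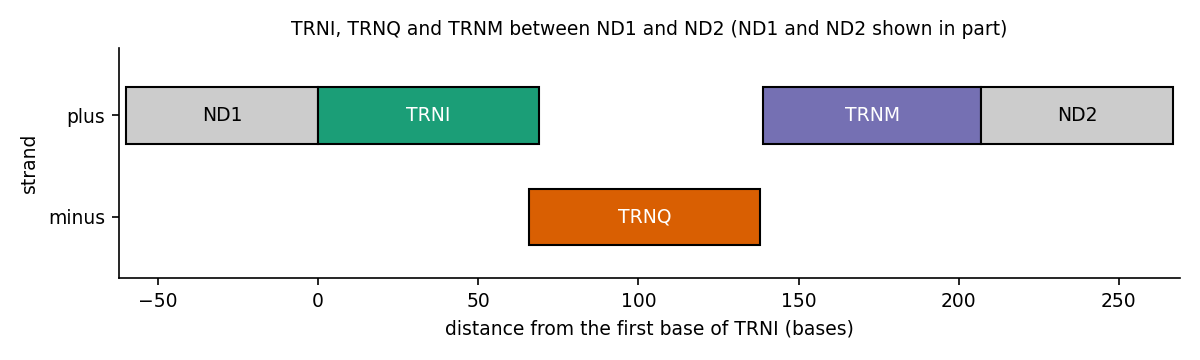
Map of the IQM cluster, with the distance from the first base of TRNI in bases on the horizontal axis and the strand on the vertical axis. TRNQ (minus strand, 72 bases) overlaps the end of TRNI by 3 bases and is separated from TRNM by 1 base, while ND1 and ND2, drawn only in part, adjoin the cluster on the plus strand.

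Each tRNA gene was counted more than once by the authors, in a gene row and in a tRNA row of the same interval. The gene rows include ND1 and ND2, whereas the tRNA rows hold tRNAs alone. A level below is the count of a row per 1000000 total reads of the library, mapped and unmapped, abbreviated as RPM. Intervals over counts cover counting error only, because the PCR copies carry no molecular identifiers and cannot be counted as separate molecules. The libraries held between 37113 total reads (ADAR1 KD) and 6295486 (H1437 replicate 1). A count of 0 allows up to 3 reads, which corresponds to 0.477 RPM in the deepest library and 80.8 in the shallowest. Replicates are samples that the titles number separately. The study describes 3 independent RIP-seq experiments per line, without saying whether each was a separate culture. The p-values therefore measure only the spread between these samples.

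H1437 replicate 1 and PC9 replicate 1 stood apart from the other libraries. Neither held a single read on the gene row of TRNI, TRNQ or TRNM, whereas the other 15 libraries held reads on all 3. In H1437 replicate 1, tRNA genes made up 0.764% of all gene-row reads, with 18 of 22 tRNA gene rows at 0, although this was the deepest library. In PC9 replicate 1 they made up 0.876%, with 20 of 22 at 0. In the other 15 libraries the share of tRNA genes ran from 3.08% to 58.3%. The results across cell lines are therefore given with and without these libraries.

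TRNQ was the member that differed most between the cell lines, and it was highest in H23. Its gene row held 2183, 1586 and 1335 RPM in H23 replicates 1, 2 and 3. In H1437 the same row held 0, 152 and 54.6 RPM, and in PC9 it held 0, 572 and 337. Every H23 library thus lay above every library of the other lines, and H1437 and PC9 overlapped. Such levels are shares of all reads of a library. Less of an RNA in the cells, less of it captured by J2 and more of other RNA captured cannot be told apart. The mean TRNQ level of H23 was 1701 ± 436 RPM, against 68.8 ± 76.9 RPM for H1437 and 303 ± 287 RPM for PC9 (SD, n = 3 per line). H23 was 24.7-fold above H1437 and 5.61-fold above PC9, or 16.5-fold and 3.74-fold without H1437 replicate 1 and PC9 replicate 1. These folds rested on single libraries of the lower lines, since without H1437 replicate 2 the ratio to H1437 was 62.3-fold, and without PC9 replicate 2 the ratio to PC9 was 10.1-fold. The H23 to H1437 ratio of TRNQ ranked 1 among the 37 gene rows, ahead of the neighbouring ND1 (18.6-fold) and ND2 (17.1-fold), and it ranked 1 without these libraries too. The H23 to PC9 ratio of TRNQ ranked 19 of 37.

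The exact permutation test of the TRNQ level across the 3 lines gave p = 0.0143, and 0.0881 after Benjamini-Hochberg adjustment over all 37 gene rows, which is above the threshold of 0.05. With the IMT1 controls added as another library of each line, the adjusted exact permutation p was 0.0108 for TRNQ and 0.0476 for TRNI, among 21 of 37 rows that passed (56.8%). The exact permutation test of TRNQ in H23 against H1437, and in H23 against PC9, gave p = 0.10, the smallest p that 3 libraries against 3 can reach. The exact permutation test of TRNQ in H1437 against PC9, which overlapped, gave p = 0.40. H23 was also high in other mitochondrial genes. It lay above H1437 without overlap in 18 of 37 gene rows (48.6%) and above PC9 in 17 of 37 (45.9%), and 16 of 37 rows (43.2%) had an unadjusted p under 0.05 while 0 passed the adjusted threshold. By these counts TRNQ behaved as many mitochondrial genes did. The share of reads that mapped to the mitochondrial genome moved with this result, at 11.0% to 24.4% in H23, 3.03% to 6.63% in H1437 and 1.89% to 7.45% in PC9. These shares follow the deposited table of mapped reads, whereas the text of the study names H1437 and H23 in the opposite order for this measure. The labels of the deposited tables were used, and every contrast of these lines rests on them. Per mapped read, TRNQ took 1.15% ± 0.741 of the H23 reads, 0.134% ± 0.165 of those of H1437 and 0.689% ± 0.653 of those of PC9 (SD, n = 3 per line). On this scale too each H23 library lay above each H1437 library, as in 10 of 37 gene rows (27%), while H23 overlapped PC9 (exact permutation test across lines, p = 0.171, adjusted 0.540).

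Among its own class, TRNQ was not alone in lying highest in H23. Over all gene rows, 15 of 37 (40.5%) lay above both other lines without overlap, TRNQ included. Of the 7 other tRNA genes of the light strand, 2 lay above both other lines without overlap, and their median H23 to H1437 ratio was 2.07. Of the 12 heavy-strand tRNA genes outside the cluster, 1 lay above both lines, with a median ratio of 0.877. ND1 and ND2, which encode subunits of respiratory complex I, both lay above the other lines without overlap. Over all 37 gene rows the median H23 to H1437 ratio was 3.95.

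For TRNI the separation of the lines depended on the row. On the gene row it held 32.7, 188 and 91.1 RPM in H23 replicates 1, 2 and 3. It held 0, 36.0 and 78.2 RPM in H1437 and 0, 23.7 and 45.6 in PC9. The lines overlapped, and H23 was 2.73-fold above H1437 and 4.49-fold above PC9 in the mean (exact permutation test across lines, p = 0.193, adjusted 0.324). The tRNA row of TRNI was higher, at 507, 786 and 1790 RPM in H23, 151, 243 and 168 in H1437 and 53.9, 588 and 140 in PC9. On this row each H23 library lay above each H1437 library (5.48-fold in the mean), as in 18 of 38 rows of this kind (47.4%), and H23 overlapped PC9 (exact permutation test across lines, p = 0.0714, adjusted 0.149). H1437 replicate 1, which had no read on the TRNI gene row, held 953 reads on the tRNA row.

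TRNM overlapped between all 3 lines. Its gene row held 188, 160 and 33.8 RPM in H23 replicates 1, 2 and 3, 0, 36.0 and 299.5 in H1437 and 0, 42.0 and 160 in PC9. The spread within each line exceeded the distance between the means, which were 127 ± 82.1, 112 ± 164 and 67.5 ± 83.2 RPM (SD, n = 3 each; exact permutation test, p = 0.825, adjusted 0.848). The highest TRNM level of the study thus lay in H1437 replicate 3, the library in which TRNQ was at its lowest level among the 15 libraries with reads. On the tRNA row the H23 to H1437 ratio of TRNM was 1.30, and without H1437 replicate 1 and PC9 replicate 1 it was 0.875.

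**Figure D2:**
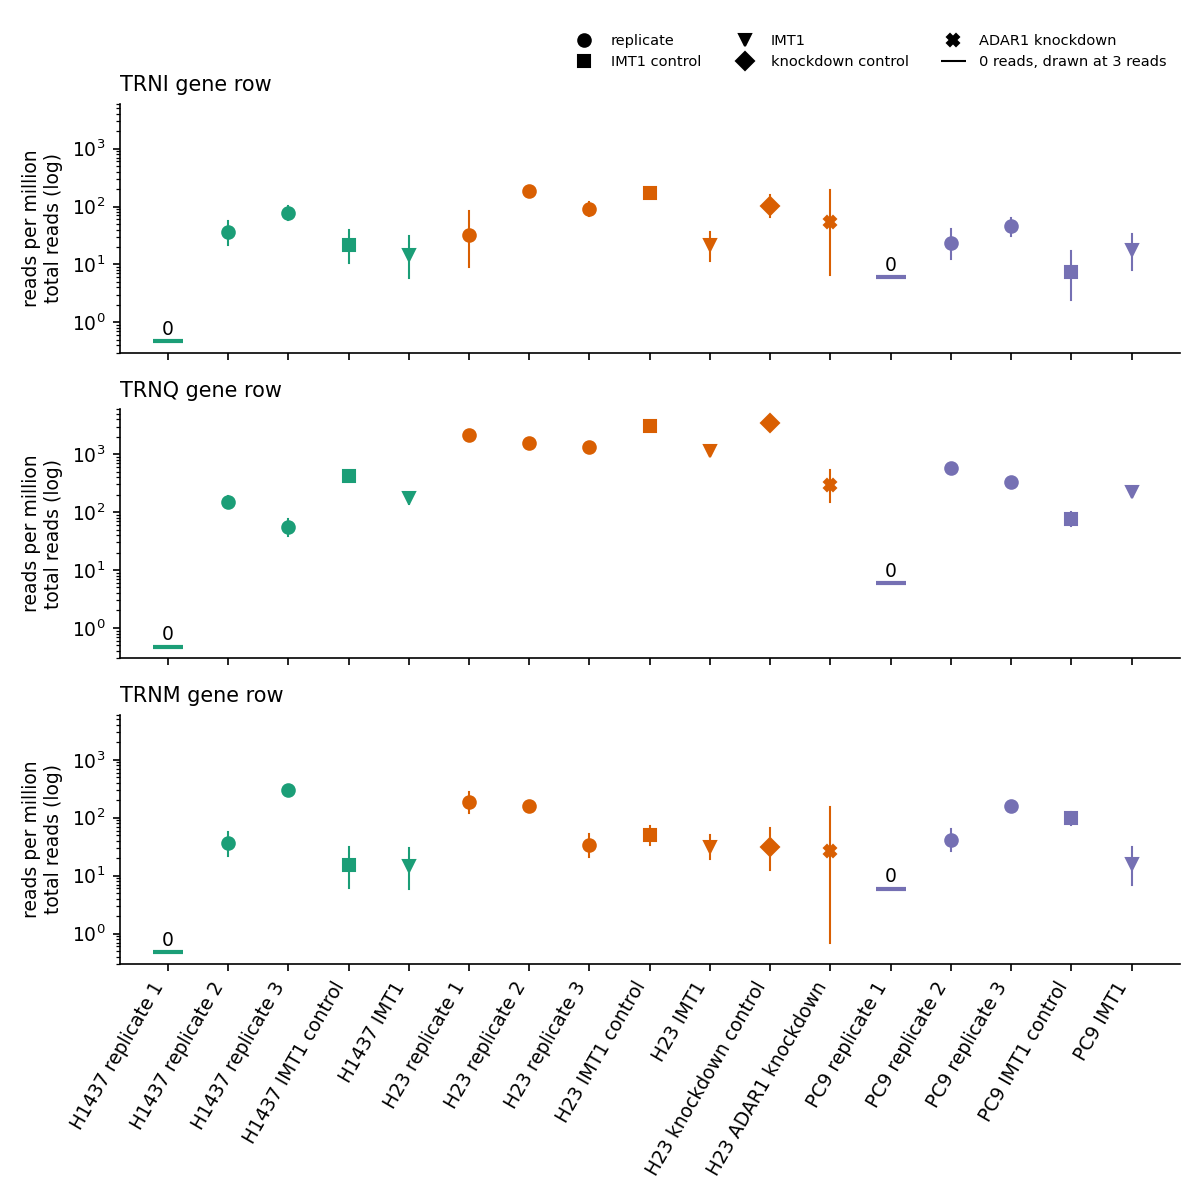
Gene-row RPM (log axis) of TRNI, TRNQ and TRNM in each of the 17 libraries, coloured by cell line; bars are 95% Poisson intervals of the count, and a dash marks 0 reads at the level that 3 reads would give. The 3 H23 replicates of TRNQ lie between 1335 and 2183, above all H1437 and PC9 libraries, while TRNI and TRNM overlap between lines.

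The edgeR quasi-likelihood test, which sets each gene against the other genes of the same library, called no gene row in any pair of lines. It called 0 of 35 rows at an adjusted or an unadjusted p under 0.05 in each of the 3 pairs, and DESeq2 called 0 at the adjusted threshold. The fitted log2 fold change of TRNQ was 3.10 ± 1.97 for H23 over H1437 (SE; adjusted p = 0.548), 0.73 ± 1.83 for H23 over PC9 (adjusted p = 0.873) and -2.36 ± 1.91 for H1437 over PC9 (adjusted p = 0.933). The common dispersion was 1.70, and at this dispersion the same test found 2 of 200 simulated 4-fold changes between H23 and H1437 in tables of 35 genes.

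Between H1437 and PC9, TRNQ was lower in H1437 in replicates 2 and 3 and higher in the pair titled replicate 4. In replicate 2 the gene row held 152 RPM in H1437 and 572 in PC9, and in replicate 3 it held 54.6 and 337. PC9 was thus 3.77-fold and 6.18-fold above H1437. In the untreated pair numbered 4, H1437 held 420 and PC9 77.0 RPM, so that the order was turned. Same-numbered libraries of H1437 and PC9 deviated together from their line means (Pearson's r between 0.877 and 0.956 over 35 genes in replicates 1 to 3). They were taken as paired for this reason, a choice made from the same counts. The fit with the replicate number as a block and these lines alone called TRNQ with a log2 fold change of -2.22 ± 0.45 (SE, edgeR adjusted p = 0.000161). This fit held 6 libraries and left 2 residual degrees of freedom. In this fit 10 of 33 gene rows (30.3%) were called, of which 9 were higher in H1437 (27.3%) and TRNQ was the 1 that was lower (3.03%). TRNI and TRNM were not called, with log2 fold changes of 0.65 ± 0.78 and 0.38 ± 0.41 (SE; edgeR adjusted p = 0.567 and 0.565). The TRNQ call was lost without replicate 1, whose libraries hold no TRNQ read (log2 fold change -2.19, edgeR adjusted p = 0.192), and with the fourth pair added (-1.13, adjusted p = 0.960). It was also lost with total reads as library size (adjusted p = 0.199) and with DESeq2 (adjusted p = 0.142).

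Within the cluster, TRNQ held more reads than its plus-strand neighbours in most libraries. Reads per base of TRNQ were set against the arithmetic mean of TRNI and TRNM, with 0.5 reads added to each count. On the gene rows TRNQ was above this mean in 14 of the 15 libraries with reads, with a median of 11.9-fold and a range from 0.276-fold to 47.0-fold. H1437 replicate 3 was the exception, with 37 TRNQ reads beside 53 of TRNI and 203 of TRNM. The highest ratio came from the H23 control of the knockdown, with 762 TRNQ reads beside 23 of TRNI and 7 of TRNM. In the untreated replicates of H23 the ratios were 18.1, 8.65 and 20.1, in H1437 replicates 2 and 3 they were 3.93 and 0.276, and in PC9 replicates 2 and 3 they were 16.1 and 3.09. The log2 ratio averaged 3.87 ± 0.66 in H23 (SD, n = 3), and the lines did not differ at the threshold (exact permutation test, p = 0.0964; p = 0.171 without H1437 replicate 1 and PC9 replicate 1).

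The lead of TRNQ was smaller on the tRNA rows, where more reads of TRNI were counted. There TRNQ was above the mean of its neighbours in 11 of these 15 libraries, with a median of 2.11-fold and a range from 0.223-fold to 7.49-fold. The libraries left out did hold reads on the tRNA rows. In H1437 replicate 1 TRNQ was at 0.00494-fold of this mean, with 2 TRNQ reads beside 953 of TRNI and 15 of TRNM. In PC9 replicate 1 TRNQ was at 0.0330-fold, with 0 reads beside 27 and 1. The geometric mean of the neighbours was an alternative chosen after seeing the data. With it TRNQ was above in 13 of the 15 libraries with a median of 3.46-fold, against 14 libraries and 11.9-fold on the gene rows. Against TRNM alone the median was 10.8-fold on the gene rows and 9.17-fold on the tRNA rows. Against TRNI alone it was 11.3-fold on the gene rows and 1.18-fold on the tRNA rows, with TRNQ above TRNI in 14 and in 8 of the 15 libraries. The order of TRNQ and TRNI on the tRNA rows thus varied from library to library, while TRNQ exceeded TRNM in 13 of 15 on both kinds of row.

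**Figure D3:**
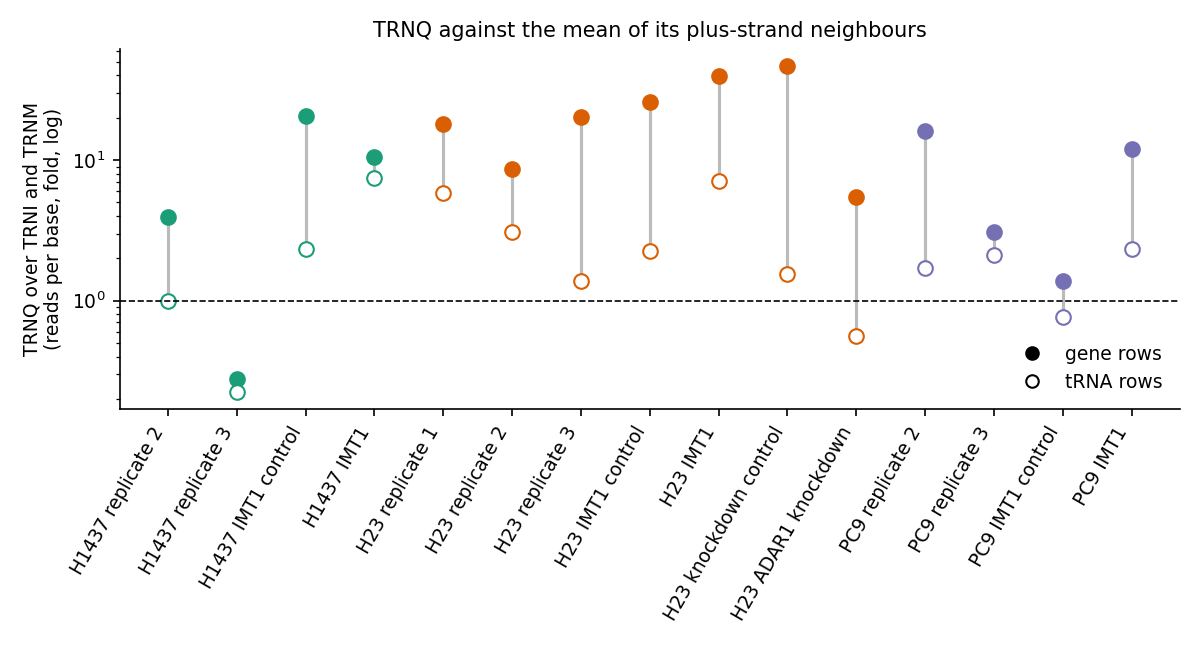
Reads per base of TRNQ over the arithmetic mean of TRNI and TRNM (fold, log axis) in the 15 libraries with reads on the gene rows of the members, from gene rows (filled) and tRNA rows (open), coloured by cell line. Gene-row ratios lie above 1 in 14 libraries and tRNA-row ratios in 11, with H1437 replicate 3 below 1 on both.

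Ranked by gene-row reads per base among the 22 tRNA genes, TRNQ had a median rank of 2 over the 15 libraries with reads and held rank 2 in 9 of them. It ranked 22, the lowest, in H1437 replicate 3. Its share of all tRNA gene-row reads ran from 0.225% to 30.5% (median 5.81%). TRNI and TRNM each had a median rank of 16, with median shares of 0.486% and 0.585%. On the tRNA rows of the same 15 libraries the median rank was 7 for TRNQ, 10 for TRNI and 18 for TRNM, so that TRNQ had the best median rank of the cluster on both kinds of row.

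The gene row and the tRNA row of one gene differed strongly for TRNI, less for TRNM and in only 1 library for TRNQ. The gene row of TRNI held a median of 7.46% of the reads of its tRNA row, with 58.3% at most (H1437 with IMT1). For TRNM the median was 73.1%, and the rows were equal in 1 library (the PC9 control of IMT1, 66 reads on both). The percentage was lower for TRNI than for TRNM in 15 of 17 libraries and 0 for both in the other 2. For TRNQ the rows were equal in 16 of 17 libraries, and the exception was H1437 replicate 1, with 0 reads on the gene row and 2 on the tRNA row. Summed over the 17 libraries, 5523 reads were counted on the tRNA row of TRNI and not on its gene row, against 200 for TRNM, and the number was larger for TRNI in 17 of 17 libraries.

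The annotation around each gene went in part with this difference. TRNQ is one of 5 tRNA genes that adjoin a tRNA gene on both sides, and in 3 of these 5 (TRNA, TRNN and TRNC) the rows were equal in every library. TRNS2 resembled TRNQ, with equal rows in 16 of 17 libraries. Of the 17 other tRNA genes, 0 had equal rows in all libraries. TRNP, which adjoins 1 tRNA gene, came close, with equal rows in 14 of 17 libraries and 99.6% at the lowest. TRNI and TRNM also adjoin 1 tRNA gene each, and their medians were 7.46% and 73.1%. TRNI adjoins ND1 and TRNM adjoins ND2, so that a read running from either gene into its tRNA and no further touches more than 1 gene interval but only 1 tRNA interval. The TRNI reads missing from the gene row amounted to between 4.55% and 65.6% of the reads on the ND1 coding row, and the TRNM reads to at most 6.51% of those on the ND2 coding row. Whether such running reads make up the difference was not tested, since the alignments were not analysed here. Across the lines the percentage passed the threshold for neither TRNI nor TRNM (exact permutation tests on replicates 1 to 3, p = 0.804 and 0.821), and 0 of 19 tRNA genes with varying percentages had an unadjusted p under 0.05. The TRNQ percentage cannot be compared between lines, since it was 100% in every library with TRNQ reads other than H1437 replicate 1, where it rests on 2 reads.

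**Figure D4:**
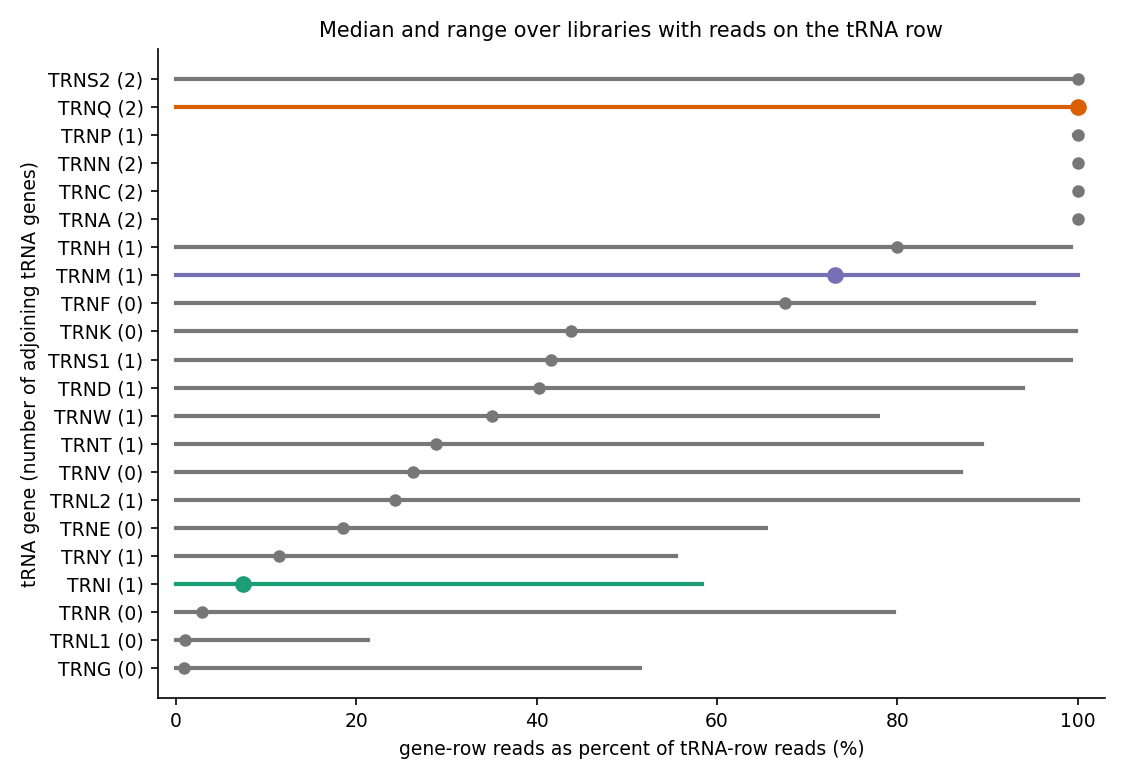
Gene-row reads as a percentage of tRNA-row reads for the 22 tRNA genes, with the median (point) and range (line) over the libraries with reads on the tRNA row; the number of adjoining tRNA genes stands in parentheses. TRNQ lies at a median of 100%, TRNM at 73.1% and TRNI at 7.46%.

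Across the 17 libraries, each member had at least 3 gene rows more like it than any other member. As a share of all gene-row reads, TRNQ was most like ND3 (Spearman's rho = 0.811), ND2 (0.806) and TRNY (0.752), where ND3 encodes another subunit of complex I and TRNY is the light-strand gene for tRNA-Tyr. TRNI was most like TRNK (0.799), TRNT (0.750) and TRNG (0.728), which encode the tRNAs for lysine, threonine and glycine on the heavy strand. TRNM was most like TRNV (0.887), TRNH (0.860) and TRNK (0.828), of which TRNV and TRNH encode the tRNAs for valine and histidine. Among the members, rho was 0.586 for TRNI with TRNM, 0.375 for TRNI with TRNQ and 0.201 for TRNQ with TRNM. These values describe 17 libraries that share a denominator within each library, and the 2 libraries with no member reads enter each of them. Without these 2, the gene rows most like TRNQ, TRNI and TRNM were again ND3 (0.807), TRNK (0.707) and TRNV (0.836). The values among the members were lower without them, at 0.396 for TRNI with TRNM, 0.089 for TRNI with TRNQ and -0.16 for TRNQ with TRNM.

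IMT1 had no uniform direction on the cluster. The TRNQ gene row of H1437 held 420 RPM in the control and 173 with IMT1, and that of H23 held 3045 and 1135 RPM. In PC9 it was higher with IMT1, at 219 RPM against 77.0 in the control. The log2 ratios of IMT1 over control, with 0.5 reads added to each count, were -1.27, -1.42 and 1.50. TRNI held 21.7 RPM in the H1437 control and 14.8 with IMT1, 174 and 21.6 RPM in the H23 pair, and 7.40 and 17.6 RPM in the PC9 pair (log2 ratios -0.53, -2.96 and 1.19). TRNM was the 1 member with a lower level in all 3 lines, at 15.2 RPM in the control and 14.8 with IMT1 in H1437, 50.8 and 31.6 in H23, and 97.7 and 15.6 in PC9 (log2 ratios -0.04, -0.67 and -2.57). In H1437 this difference rests on 7 reads in each library.

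None of these differences passed a test. Exact sign-flip permutation tests over the 3 pairs gave p = 0.75 for TRNI, 1 for TRNQ and 0.25 for TRNM, where 0.25 is the smallest p that 3 pairs allow. The edgeR test with the line as a block called 0 of 33 gene rows, with 2 at an unadjusted p under 0.05 (6.06%), and DESeq2 called 1, TRNS2, which is not in the cluster. Lower in all 3 lines, as TRNM was, were 8 of 37 gene rows (21.6%). Lower in H1437 and H23 and higher in PC9, as TRNI and TRNQ were, were 14 of 37 (37.8%). The median log2 ratio over all gene rows was -0.53 in H1437, -1.11 in H23 and near 0 in PC9. In H23 the library with IMT1 lay below all 5 H23 libraries without IMT1 or knockdown for each of the 3 members, as in 13 of 37 gene rows (35.1%). For TRNM the lowest of these 5, the knockdown control, held 31.7 RPM from 7 reads. The library with IMT1 held 31.6 RPM from 19 reads, so these levels were equal within counting error.

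On the gene rows, the choice of denominator turned the sign of the mean of each member. On the tRNA rows, the mean log2 ratio of TRNI was -2.02 per total read and -0.48 per mapped read. That of TRNM was -1.61 and -0.07. The share of mapped reads was 5.30% in the control and 1.14% with IMT1 in H1437, 30.5% and 9.83% in H23, and 6.73% and 3.94% in PC9. Per mapped read, TRNQ was higher with IMT1 in 3 of 3 lines (log2 ratios 0.94, 0.21 and 2.27, exact sign-flip test p = 0.25). The share of all gene rows that were higher in this way was not counted, so this is not read as particular to TRNQ. On the gene rows per mapped read, TRNI was higher in H1437 and PC9 and lower in H23, and TRNM was higher in H1437 and H23 and lower in PC9. On the tRNA row per mapped read, TRNI was lower in H1437 and H23 (-1.26 and -1.73) and higher in PC9 (1.55), while TRNM kept its directions. Relative to the arithmetic mean of its neighbours on the tRNA rows, TRNQ was higher with IMT1 in each line, with changes of the log2 ratio of 1.69, 1.65 and 1.60 in H1437, H23 and PC9 (exact sign-flip test, p = 0.25). The lines were less alike with other denominators. Against TRNI alone the changes were 2.20, 1.94 and 0.73, and against TRNM alone they were 0.30, -0.56 and 3.91. With the geometric mean of the neighbours they were 1.25, 0.69 and 2.32. On the gene rows the changes against the arithmetic mean were -0.97, 0.62 and 3.11, so that the lines also parted by the kind of row. The tRNA row of TRNI held 291 RPM in the H1437 control and 25.3 with IMT1, and 2478 and 239 RPM in the H23 pair. In PC9 the row held 94.8 and 162 RPM.

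**Figure D5:**
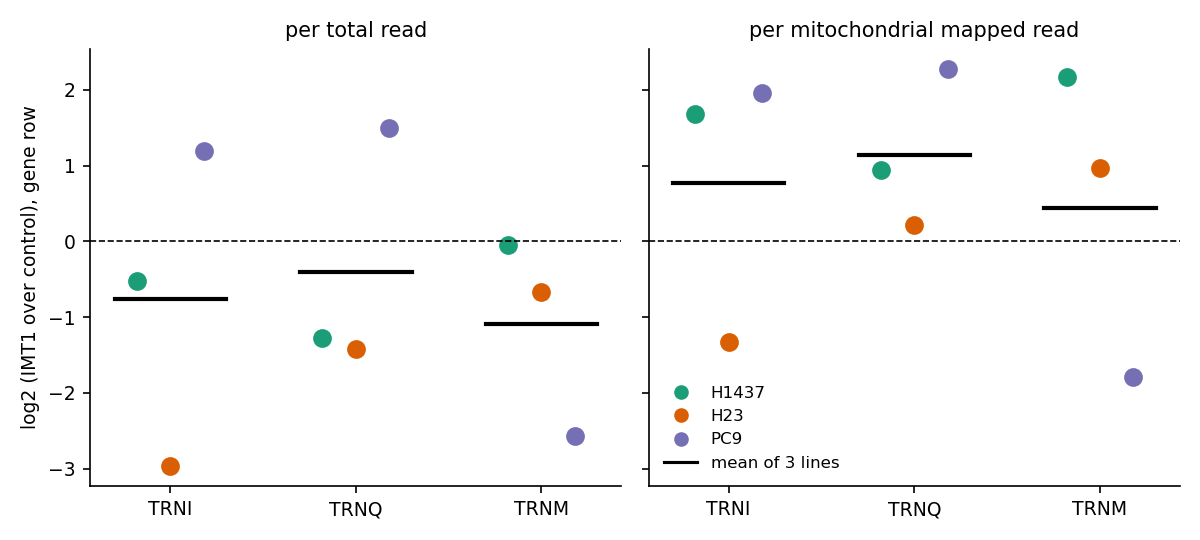
Log2 ratio of the gene-row level with IMT1 over the control library of the same line, per total read (left) and per read mapped to the mitochondrial genome (right); points are lines and dashes are the mean of 3 lines. TRNQ lies at -1.27, -1.42 and 1.50 per total read and at 0.94, 0.21 and 2.27 per mapped read.

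The ADAR1 KD library was the shallowest, and on the gene rows TRNQ was the 1 member whose ratio to the control had a counting interval that left out equal levels. The TRNQ gene row held 11 reads in the knockdown and 762 in the control, which is 296 against 3446 RPM. This is 11.6-fold lower, with a 95% interval from 6.46-fold to 23.4-fold that covers counting error only. With 1 library on each side no test of the knockdown is possible. TRNI held 2 and 23 reads and TRNM 1 and 7 reads in knockdown and control, and the intervals of their log2 ratios reached from -4.08 to 1.07 and from -5.73 to 2.73, so that no difference was detectable on these rows at this depth. On the tRNA row TRNI held 36 reads in the knockdown and 896 in the control (4.18-fold lower per total read, interval 2.99-fold to 6.00-fold). The tRNA row of TRNM held 2 and 48 reads (4.03-fold lower, interval 1.06-fold to 34.2-fold).

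The lower level of TRNQ in the knockdown was shared by many mitochondrial genes. Of the 37 gene rows, 12 had no read in the knockdown, with at most 78 reads in the control. With these rows set at the 3 reads that a count of 0 allows, 23 of 37 (62.2%) were lower by over 2-fold per total read, 1 of the 12 among them. Of the 25 rows with reads in both libraries, which the change itself helps to select, 22 (88%) were lower by over 2-fold, and 2 of them had a lower ratio than TRNQ. The share of mapped reads was 11.0% in the knockdown and 47.2% in the control, the highest of the study. Per mapped read, TRNQ was 2.72-fold lower in the knockdown (interval 1.51-fold to 5.47-fold), as 7 of 37 rows (18.9%) were by over 2-fold with the rows at 0 set at 3 reads, or 7 of the 25 with reads in both libraries (28%). On this scale the log2 ratio of knockdown over control was 0.03 for the tRNA row of TRNI (interval -0.49 to 0.51) and 0.09 for that of TRNM (interval -3.00 to 2.02). Against the 5 H23 libraries without IMT1 or knockdown, at 1335 to 3446 RPM, the knockdown lay below all 5 for TRNQ, as in 23 of 37 gene rows (62.2%).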

How the data were processed

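J2 RIP-seq was analysed in 17 libraries of H1437, H23 and PC9, grouped by their titles and the alignment names in their descriptions. The authors base-called the reads with Dorado, aligned them with minimap2 2.17-r941 against mitochondrial sequence only and deposited counts of mapped and total reads (SAMtools 1.10), with the percent mapped as rounded by the authors, and raw counts of 99 annotated features (featureCounts, minimum overlap 6 bases, not normalized). One passage of the methods allows reads to overlap several features and another excludes them. The strand setting and the row set of each count are not given in the sources used here.

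Counts were scaled per 1000000 total reads or per mapped read in Python 3.11.15 (pandas 2.3.3, numpy 2.4.6, scipy 1.17.1). Levels of the lines were tested by exact permutation (two-sided), IMT1 pairs by exact sign-flip tests, and gene rows reaching 10 counts in 3 or more libraries by edgeR 4.0.16 (quasi-likelihood, TMM, Benjamini-Hochberg over all rows tested) in R 4.3.3, with DESeq2 1.42.0 as an alternative. The knockdown intervals are exact 95% intervals of a ratio of counts. The edgeR script was tested on simulated data, where it found 200 of 200 genes changed 4-fold at a dispersion of 0.02 and called 22 of 1200 unchanged genes. The correlation of deviations between same-numbered libraries was over 0.1 in every H1437 and PC9 pair, which were taken as paired, and ran from -0.779 to 0.331 between H23 and the other lines. Replicates of a line differed by more than sampling noise (chi-square tests of counts), so none were merged. Genes named beside the members were ND1, ND2, the other tRNA genes and, per member, the 3 gene rows with the highest Spearman's rho of log2 shares with 0.5 reads added. The members, lists and tests were chosen with earlier results of these data known.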

Additional observations from a re-analysis of the deposited data

Results flagged for a closer look

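TRNI and TRNQ were both lower with IMT1 in H1437 and H23 and both higher in PC9, with 1 library per line and treatment. The log2 ratio of IMT1 over control per total read was -0.53 in H1437 and -2.96 in H23 for TRNI, but 1.19 in PC9. For TRNQ it was -1.27 in H1437 and -1.42 in H23, but 1.50 in PC9. The difference between lines was not tested. TRNI rested on 5 to 96 reads and TRNQ on 52 to 1680 reads per library. Of all 37 gene rows, 14 (37.8%) shared this pattern.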

How the results depend on the processing

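With the IMT1 controls added, the level across lines passed the adjusted threshold for TRNI (exact permutation test, adjusted p = 0.0476) and TRNQ (0.0108), as did 21 of 37 gene rows (56.8%). The other 89 of 91 alternatives to the permutation tests across lines, leaving out those of the TRNQ percentage of rows, the replicate block included (adjusted p = 0.206 for TRNQ), kept their side of the threshold. The counts of edgeR calls were 0 under most alternatives. For H1437 against PC9 they were 10 with the replicate block and these lines alone, 3 (TRNQ, TRNE and CYTB) with that block on the CDS, rRNA, tRNA and D-loop rows, 0 with that block and total reads as library size, DESeq2 or the fourth pair, and from 0 to 1 when a library or replicate number was left out. TRNQ was called under that block (log2 fold change -2.22, edgeR adjusted p = 0.000161) and on the CDS, rRNA, tRNA and D-loop rows (-2.17, 0.0393), not with total reads (0.199) or DESeq2 (0.142). For IMT1, DESeq2 called 1 row, TRNS2. The alternatives within that block those leaving out both libraries without member reads, or a line in edgeR, the geometric mean of the neighbours, the folds of H23 without each library and the knockdown counts with rows at 0 kept were chosen after seeing the data. The sign of TRNQ between lines was the same in all 51 alternatives, which refit largely the same libraries and are not independent. In the untreated pair numbered 4, taken alone, H1437 held more TRNQ than PC9 (420 and 77.0 RPM), against this sign.

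No edgeR fold change of TRNI or TRNM was called, and their signs turned with the scaling. Total reads as library size moved the median log2 fold change of all rows from 0.10 to 1.98 for H23 over H1437 and from 0.29 to 2.49 for H23 over PC9. For H23 over H1437, TRNI (-0.81) became 0.22 with DESeq2, 1.46 with total reads, 0.025 without a filter and 1.00 with the replicate block, and TRNM (-1.95) became 0.18 with total reads and 1.20 with the block. For H23 over PC9, TRNI (-0.24) became 2.166, 0.51 and 1.20 with total reads, no filter and the block, and TRNM (-1.23) became 0.91 and 1.25 with total reads and the block. For H1437 over PC9, DESeq2 gave -0.50 for TRNI (0.57) and -0.79 for TRNM (0.73). With the block and these lines alone, TRNI was -0.19 on the CDS, rRNA, tRNA and D-loop rows, and TRNM was -0.26 with DESeq2 and -0.77 with the fourth pair. Leaving out 1 library moved TRNI from -1.38 to 1.01 (H23 over H1437), from -0.71 to 1.06 (H23 over PC9) and from -1.25 to 1.87 (H1437 over PC9), and TRNM from -2.61 to 1.58, from -2.24 to 0.92 and from -2.81 to 2.87. These signs turned without H1437 replicate 3, without PC9 replicate 3 and, for TRNI in H23 over PC9, without H23 replicate 1, and the cause was not tested. The IMT1 effect of TRNQ in edgeR (-0.06) became 0.080 with DESeq2, 0.17 without a filter and 0.39 on the CDS, rRNA, tRNA and D-loop rows, and ran from -0.37 to 0.54 without 1 line, being above 0 without H1437 or H23.

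Per mapped read, the mean log2 ratio with IMT1 on the gene rows became 0.77 for TRNI, 1.14 for TRNQ and 0.45 for TRNM. On the tRNA rows per mapped read it was -0.48 for TRNI and -0.07 for TRNM. Leaving out 1 line moved the gene-row mean per total read from -1.75 to 0.33 for TRNI (above 0 without H23). For TRNQ this mean ran from -1.35 to 0.11 (above 0 without H1437 or H23) and for TRNM from -1.62 to -0.36. On the gene rows per mapped read, the knockdown log2 ratio became 1.15 for TRNI (interval -1.98 to 3.16) and 1.86 for TRNM (interval -3.63 to 4.82). For TRNQ it became -1.44 (interval -2.45 to -0.596). Lower in the knockdown by over 2-fold were 62.2% of all 37 gene rows with rows at 0 set at 3 reads, against 88% of the 25 with reads in both. Depth limits TRNI and TRNM most, since 2 and 1 reads were counted in the knockdown.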
